A study of Mus musculus with 8 samples.

Results

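Pancreatic islets of 8-week-old mice labelled Tcf7 knockout (genotype Tcf7 -/-) were set against islets of wild-type mice (Tcf7 +/+) of the same age, in 4 of the 8 libraries of the series. All mice were of the C57BL/6 strain. The diet field gave a low-fat diet with 10% fat, while the treatment text of the labels spoke of regular chow. The groups were wild-type replicates 1 and 2 and knockout-labelled replicates 1 and 2. The other 4 libraries came from wild-type and knockout-labelled mice aged 20 weeks on 45% fat, so age and diet changed together between the experiments. Total RNA was depleted of ribosomal RNA before sequencing. The labels state neither which part of Tcf7 was deleted, nor in which cells, nor whether a library held islets of 1 animal or of a pool. The p-values therefore measure the spread between these samples, which may be technical.

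Tcf7 encodes TCF-1, a member of the TCF/LEF family of transcription factors. These proteins bind short DNA motifs and, with beta-catenin as partner, switch the target genes of Wnt signalling. TCF-1 is best known from T lymphocytes, whose development depends on it. In islets, TCF-1 has been linked to signalling by the receptor of the incretin hormone GIP and to the survival of beta cells, and the study asked what its loss does there. Islets are clusters of hormone cells inside the exocrine pancreas, whose acinar cells make digestive enzymes and whose ducts carry them to the gut. Isolated islets can therefore carry acinar, duct, vessel, nerve and blood cells with them.

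Values were in RPM, the reads of a gene scaled to the total reads of its library, and 12422 of the 22632 listed genes were tested, those with at least 1 RPM in at least 2 of the 4 libraries. Genes just inside that rule, Ankrd5 and Gm10801, had a second highest value of 1.00015 RPM, and those just outside, Prr5l and 9030612E09Rik, had 0.995 RPM. The library totals were 112 and 155 M reads in wild type and 191 and 164 M reads in knockout-labelled replicates 1 and 2, and 41.6% to 51.0% of them lay in listed genes. Fold changes were differences of group means on log2(RPM + 1), knockout minus wild type, and this scale shrinks the differences of low genes. A gene was called where its limma adjusted p was under 0.05.

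The knockout-labelled libraries differed most from each other. Their median absolute log2 difference was 0.407, and 11863 of the 12422 tested genes were lower in replicate 1 than in replicate 2. From wild-type replicate 1, knockout-labelled replicate 1 differed by 0.189 and replicate 2 by 0.253. From wild-type replicate 2, knockout-labelled replicate 1 differed by 0.276. In pairs with knockout-labelled replicate 1, 258 to 474 genes differed by more than 1 on the log2 scale, against 64 to 244 in the other pairs. The wild-type libraries differed by 0.141, and the closest pair across the groups, wild-type replicate 2 and knockout-labelled replicate 2, by 0.152. Beta cell genes were strongly present in all 4 libraries, with a summed level of 60654 to 71101 RPM over the 30 genes of that list. Acinar genes, the markers of the exocrine tissue, summed to 3841 and 10869.8 RPM in wild-type islets and to 31425 and 16064 RPM in knockout-labelled replicates 1 and 2, over 36 listed genes. That was 0.912% and 2.35% of the reads in listed genes in wild type against 7.55% and 3.15%. The part of exocrine content in the differences below was not tested except where a value is given. In these bulk samples, fewer cells of a type and less RNA per cell cannot be told apart.

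Tcf7 itself (ENSMUSG00000000782) did not read lower under the knockout label. It stood at 0.277 and 0.381 RPM in wild-type islets, from 31 and 59 reads, and at 0.512 and 0.519 RPM in knockout-labelled islets, from 98 and 85 reads. The groups did not overlap, and the knockout-labelled libraries were the higher ones. The gene fell short of the filter and was not tested. Reads summed over the gene cannot check a deletion of unstated extent, so every direction below rests on the labels. Among relatives, Lef1 was also below the filter, with 18 and 54 reads in wild type and 8 in each knockout-labelled library. Tcf7l1, a TCF factor known mainly as a repressor, had a log2 fold change of -0.10 ± 0.26, and Tcf7l2, a gene near which human variants raise the risk of type 2 diabetes, one of 0.02 ± 0.28. Neither was called.

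In knockout-labelled islets the genes called lower included 4 of 8 tested B lymphocyte genes, 7 of 13 pan-leukocyte genes, 5 of 19 nerve and glia genes and 2 of 4 erythroid genes, together with Aldh1a3. Those called higher included 12 of 34 acinar genes, 3 of 4 Reg genes, 2 of 14 duct genes and 4 of 17 genes of an intestinal list chosen after values were seen. limma called 37 genes lower, which is 0.298% of those tested, and 29 higher, which is 0.233%. The lower calls had log2 fold changes from -2.79 to -0.96 and the higher calls from 0.98 to 3.01, while the median of all tested genes was -0.02. Groups did not overlap in any of the 66, where knockout-labelled libraries were both below wild type in 4.89% of all tested genes and both above in 6.91%. Of the 37 genes called lower, 26 reached 1 RPM in both wild-type libraries but not in both knockout-labelled ones. Of the 29 called higher, 9 reached it in both knockout-labelled libraries but not in both wild-type ones. Those under 1 RPM in both libraries of the other group, such as Bank1 and Fut2, could pass only by being high in 1 group. Others, such as Aldh1a3 and Reg2, also reached 1 RPM in 1 library of the other group.

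**Figure D1:**
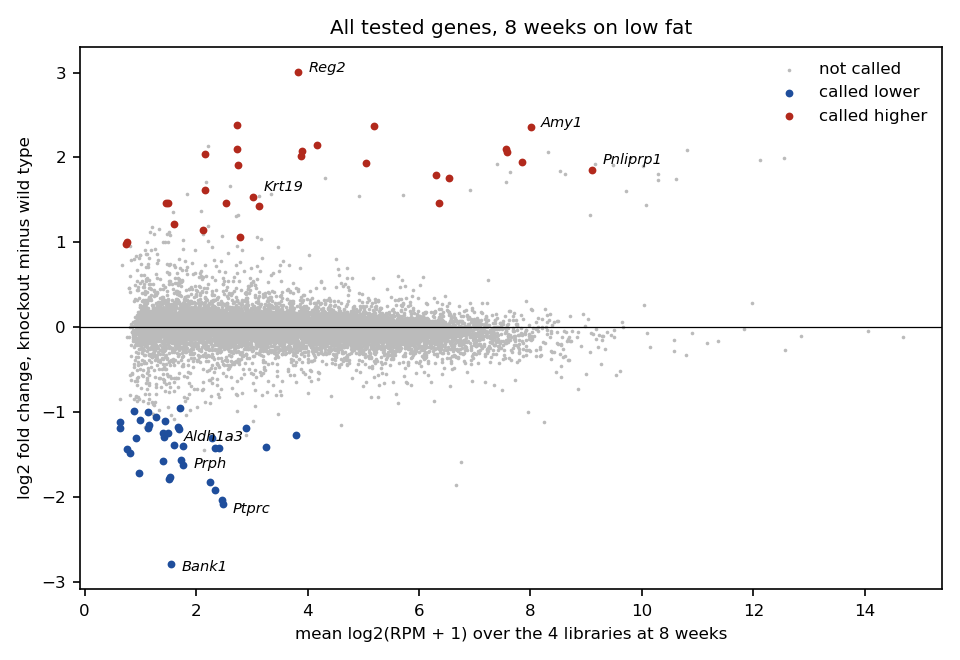
Log2 fold change at 8 weeks (knockout minus wild type) against the mean log2(RPM + 1) over the 4 libraries for the 12422 tested genes, with 37 called lower in blue, 29 called higher in red and the rest in grey. The lower calls lie among genes of low level, while the higher calls reach into genes of high level such as Amy1 and Pnliprp1.

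The scaling moved both counts of calls. With median-of-ratios scaling 7 genes (0.0564%) were lower and 0 higher, and with values scaled to the reads in listed genes 12 were lower and 0 higher, against 37 and 29, although all 66 kept their sign under both. The unadjusted p was under 0.05 for 668 and 592 genes there. The edgeR test on recovered reads called 9 (0.0725%) lower and 0 higher (674 genes at an unadjusted p under 0.05, against 443 by limma), and DESeq2 called 80 (0.644%) lower and 20 (0.161%) higher. Both scalings, edgeR and DESeq2 all kept 7 genes: Bank1, Arhgap15, Dock2, Ptprc, Wdfy4, Ms4a1 and Aldh1a3. Without knockout-labelled replicate 1, 14 of the 37 lower calls and 1 of the 29 higher calls, Anxa13, were kept, with 14 genes lower and 8 higher in all.

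A search for TCF/LEF motif letters asked whether the called genes share them at their starts. The core sequences ATCAAAG and TTCAAAG, which differ in the first base and so never match at the same place on the same strand, were searched on both strands in the 250 bases before each RefSeq start site. Of 25 lower calls with a RefSeq promoter 1 held a match (4%), and of 18 higher calls 3 held one (16.7%), against 6.34% of 8787 tested genes and 8.63% of all 27025 promoters. With so few promoters the shares are a description. The 4 are shown because they are the called genes with a match, which is in capitals, on the gene's strand from 5′ to 3′ in build GRCm38.p6. Ptprc lies at chr1:138175306-138175555 on the minus strand, Apob at chr12:7977427-7977676, Akp3 at chr1:87124704-87124953 and Reg2 at chr6:78404905-78405154, these on the plus strand.
Ptprc: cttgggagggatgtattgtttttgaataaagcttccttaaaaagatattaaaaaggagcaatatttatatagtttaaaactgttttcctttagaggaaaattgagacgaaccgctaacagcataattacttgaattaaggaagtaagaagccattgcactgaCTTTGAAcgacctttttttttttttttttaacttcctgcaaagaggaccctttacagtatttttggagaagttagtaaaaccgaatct
Apob: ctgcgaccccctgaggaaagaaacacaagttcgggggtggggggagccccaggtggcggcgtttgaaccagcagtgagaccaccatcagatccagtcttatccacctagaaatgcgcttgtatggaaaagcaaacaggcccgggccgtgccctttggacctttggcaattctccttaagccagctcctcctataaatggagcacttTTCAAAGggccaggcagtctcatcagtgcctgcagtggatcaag
Akp3: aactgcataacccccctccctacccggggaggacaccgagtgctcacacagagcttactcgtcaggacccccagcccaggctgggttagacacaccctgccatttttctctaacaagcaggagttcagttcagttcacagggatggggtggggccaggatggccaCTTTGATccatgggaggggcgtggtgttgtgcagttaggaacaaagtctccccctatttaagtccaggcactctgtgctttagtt
Reg2: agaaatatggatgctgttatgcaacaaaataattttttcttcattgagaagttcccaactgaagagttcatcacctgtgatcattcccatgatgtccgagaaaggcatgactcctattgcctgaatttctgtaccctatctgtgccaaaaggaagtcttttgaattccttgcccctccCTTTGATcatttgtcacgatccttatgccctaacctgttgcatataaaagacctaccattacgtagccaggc
The match begins 88 bases before the start in Ptprc, 44 in Apob, 85 in Akp3 and 72 in Reg2. A match is no evidence of binding. RefSeq holds a second, downstream start of Ptprc, whose window had no match.

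B lymphocyte genes held the largest fall. Bank1, a scaffold protein of B cell receptor signalling, stood at 9.64 and 4.55 RPM in wild-type islets and at 0.105 and 0.110 RPM in knockout-labelled islets. Both wild-type libraries were far above both others, and the log2 fold change was -2.79 ± 0.25 (limma adjusted p = 3.7e-07). Pax5, the factor that holds B cells to their identity, stood at 4.21 and 1.44 RPM against 0.0836 and 0.0915 RPM (log2 fold change -1.71 ± 0.26, limma adjusted p = 0.0012). Ms4a1, which encodes the B cell antigen CD20, stood at 1.82 and 1.73 RPM against 0.0366 and 0.0244 RPM, which in reads was 204 and 268 against 7 and 4. Cd79b, a signalling chain of the B cell receptor, stood at 1.44 and 1.12 RPM against 0.0523 and 0.0549 RPM. In each of these genes both knockout-labelled libraries lay below both wild-type ones. Cd79b lost its call without knockout-labelled replicate 1, with an unmoved log2 fold change of -1.11.

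Of 16 listed B lymphocyte genes, 8 were tested, and of these 4 fell and 0 rose, with a median log2 fold change of -1.07. The other tested members were Ebf1 (-1.02), Pou2af1 (-0.85), Blnk (-0.39) and Fcrla (-0.09), none of them called. The 4 called genes and Pou2af1 stood under 1 RPM in both knockout-labelled libraries. They passed the filter through wild type alone and could only come out lower. Below the filter, the receptor kinase gene Blk stood at 1.31 and 0.632 RPM in wild-type islets and 0.0209 and 0.0122 RPM in knockout-labelled islets, and the inhibitory co-receptor gene Cd22 at 1.56 and 0.503 RPM against 0.157 and 0.0671 RPM. In both genes the knockout-labelled libraries were below the wild-type ones. The list summed to 48.2 and 39.0 RPM in wild-type islets and 12.1 and 20.5 RPM in knockout-labelled islets. Among further calls, Btla, an inhibitory receptor of lymphocytes, had a log2 fold change of -1.48 ± 0.24, Aff3, a nuclear factor of lymphoid tissue, one of -1.63 ± 0.26, and Hvcn1, a proton channel of leukocytes, one of -1.31 ± 0.23. Without either wild-type library Bank1, Pax5, Ms4a1 and Cd79b no longer reached the filter, so those fits do not test them.

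Genes shared by most white blood cells fell as well. Ptprc, which encodes the leukocyte surface phosphatase CD45, stood at 9.15 and 11.3 RPM in wild-type islets and 1.59 and 1.86 RPM in knockout-labelled islets. The libraries within each group lay close together, and the log2 fold change was -2.04 ± 0.22 (limma adjusted p = 5.7e-06). Arhgap15, a Rac regulator, stood at 9.89 and 11.2 RPM against 1.51 and 1.93 RPM (log2 fold change -2.09 ± 0.20). Dock2, which activates Rac in migrating leukocytes, stood at 8.36 and 9.34 RPM against 1.42 and 1.78 RPM (log2 fold change -1.92 ± 0.21). These genes were 5.52 to 6.13 times as high in mean RPM in wild-type islets, and they kept their call without each 8-week library in turn. Ikzf1, the lymphoid factor Ikaros, stood at 4.13 and 4.57 RPM against 0.523 and 0.635 RPM, and Wdfy4, a protein of antigen-presenting cells, at 5.42 and 3.38 RPM against 0.382 and 0.720 RPM. Of 13 tested pan-leukocyte genes 7 fell, the others being the cytoskeletal protein gene Coro1a (-1.06) and the tetraspanin gene Cd53 (-1.09), and 0 rose. The median was -1.06, and 12 of 13 had both knockout-labelled libraries below wild type, against 4.89% of all tested genes. The exception was Ptpn6 (-0.13). Without either wild-type library 8 of these genes were tested and 3 called, and without knockout-labelled replicate 1 5 of 13 were called with a median of -0.99. Laptm5 (-0.84), Lcp1 (-0.79) and Inpp5d (-0.73) were not called. Ikzf1, Wdfy4, Coro1a, Cd53 and Laptm5 stood under 1 RPM in both knockout-labelled libraries. Having passed the filter through wild type alone, they could only come out lower.

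Other immune cell types showed different values. No gene of the T lymphocyte and NK list reached the filter among 19 in the table, with a sum of 2.91 and 6.43 RPM in wild-type islets and 1.05 and 1.62 RPM in knockout-labelled islets. The T cell receptor chain genes Cd3d, Cd3e and Cd3g stood at 0.0179 to 0.123 RPM in wild-type islets and at 0 RPM in both knockout-labelled libraries. With 1 read worth 0.00894 RPM in wild-type replicate 1, these values rest on few reads. Other members were read under both labels. Lck (0.250 and 0.432 against 0.193 and 0.403 RPM) and Cd247 (0.813 and 1.49 against 0.434 and 0.873 RPM) overlapped between the groups. Cd2 (0.501 and 0.613 against 0.0418 and 0.0549 RPM) did not. Of 11 tested macrophage and myeloid genes, Lyz2, the lysozyme of macrophages and neutrophils, was the 1 that fell, from 7.40 and 8.54 RPM to 1.26 and 1.82 RPM (log2 fold change -1.82 ± 0.29). The median of that list was -0.22. The complement gene C1qa, a marker of tissue macrophages, had a log2 fold change of 0.03 and the macrophage growth factor receptor gene Csf1r one of -0.27, both uncalled. The 6 tested genes of antigen presentation all had negative log2 fold changes with a median of -0.80 and 0 calls by limma or edgeR. DESeq2 called 3 of them lower, and 5 had an unadjusted limma p under 0.05. Among the 6, Ciita and Cd86 stood under 1 RPM in both knockout-labelled libraries. They passed the filter through wild type alone, so their negative sign was fixed by it. Cd74, the invariant chain of MHC class II, stood at 25.4 and 29.6 RPM in wild-type islets and 15.8 and 14.8 RPM in knockout-labelled islets, without overlap (log2 fold change -0.81 ± 0.22, limma adjusted p = 0.11).

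Red blood cell transcripts were also among the lower calls. Hba-a2, an alpha globin gene, stood at 9.78 and 21.2 RPM in wild-type islets and 4.44 and 5.24 RPM in knockout-labelled islets (log2 fold change -1.41 ± 0.25), and Hbb-b1, a beta globin gene, at 12.9 and 32.5 RPM against 7.35 and 8.64 RPM (-1.27 ± 0.27). Wild-type replicate 2 was the high library and wild-type replicate 1 lay nearer to the knockout-labelled ones. All 4 tested genes of the erythroid list had negative fold changes, 2 of them called, and Hba-a1 (-1.08) had a limma adjusted p of 0.054. Without wild-type replicate 2 the list had 0 calls and a median of -0.62, against -1.17 with all libraries, and without knockout-labelled replicate 1 it had 0 calls and -1.07. The globin copies are near-identical, so the split of reads among them is uncertain. The list summed to 27.9 and 67.1 RPM in wild-type islets and 14.7 and 16.7 RPM in knockout-labelled islets. How far blood in the samples bears on the leukocyte values was not tested.

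**Figure D2:**
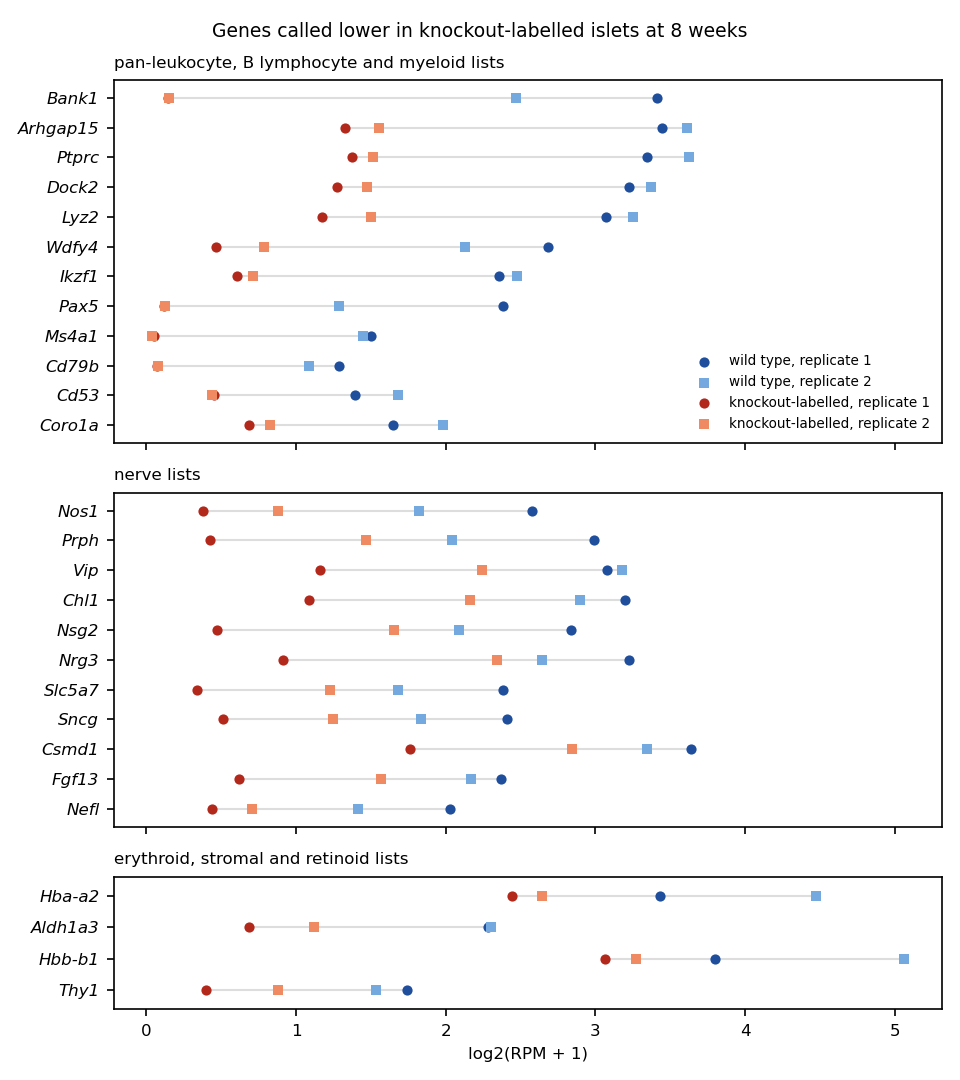
Values on log2(RPM + 1) of 27 genes called lower that belong to a gene list, 1 point per library (dark and light blue for wild type, red and orange for knockout-labelled, circles for replicate 1 and squares for replicate 2). In the pan-leukocyte, B lymphocyte and myeloid rows both knockout-labelled libraries lie together on the left, while in the nerve rows knockout-labelled replicate 2 lies between replicate 1 and wild type.

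Genes of nerve cells formed another group of lower calls, with a graded order of libraries. Nos1, the neuronal nitric oxide synthase, stood at 4.96 and 2.54 RPM in wild-type islets and 0.298 and 0.836 RPM in knockout-labelled islets (log2 fold change -1.57 ± 0.25, limma adjusted p = 0.0012). Prph, an intermediate filament protein of peripheral neurons, stood at 6.95 and 3.11 RPM against 0.345 and 1.77 RPM (log2 fold change -1.57 ± 0.29, limma adjusted p = 0.0092). Vip, a neuropeptide of pancreatic nerves, stood at 7.44 and 8.05 RPM against 1.24 and 3.72 RPM (log2 fold change -1.43 ± 0.29). Knockout-labelled replicate 1 was the lowest library in each of these, and replicate 2 lay between it and wild type. Without knockout-labelled replicate 1 Prph and Vip lost their calls, with log2 fold changes of -1.04 and -0.89, and Nos1 kept its call at -1.32. Prph also lost its call without wild-type replicate 1 (-1.09, limma adjusted p = 0.091).

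Of 19 tested genes of peripheral nerve and glia 5 fell and 0 rose, with a median of -0.41. The list had 1 call and a median of -0.18 without knockout-labelled replicate 1, and 1 call and -0.21 without wild-type replicate 1. The other calls were Sncg, a synuclein of neurons (-1.24), and Nefl, the light neurofilament (-1.15). The neuronal genes Stmn2 (-1.02), Npy (-0.91) and Chrna3 (-0.87) were not called. The myelin gene Mbp (-0.05) was close to the median of all genes and was not called either. Nos1, Nefl and Chrna3 stood under 1 RPM in both knockout-labelled libraries. These genes passed the filter through wild type alone and could only come out lower. In a second neuronal list, chosen after values were seen, 6 of 14 tested genes fell. These were the cell adhesion gene Chl1 (-1.42), the neuronal vesicle protein gene Nsg2 (-1.40), the growth factor gene Nrg3 (-1.30), the choline transporter gene Slc5a7 (-1.25), Csmd1 (-1.19) and the sodium channel partner Fgf13 (-1.18). That list had a median of -0.91, against -0.50 with 0 calls without knockout-labelled replicate 1, where 4 of 14 genes were positive, and 1 call without wild-type replicate 1. With the acinar mean added to the fit none of the 11 neuronal calls was kept, and Vip had -1.08, Nos1 -0.96 and Prph -0.93. The same fit ended the calls of Pax5 (-1.16), Ms4a1 (-1.38) and Cd79b (-1.05). It kept 8 of the 37 lower calls: Bank1, Arhgap15, Dock2, Ptprc, Ikzf1, Lyz2, Hba-a2 and Hbb-b1. Acinar content and genotype ran together in these libraries.

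Vessel and connective tissue genes gave 1 call. Thy1, a surface protein of fibroblasts, neurons and T cells, stood at 2.35 and 1.89 RPM in wild-type islets and 0.319 and 0.842 RPM in knockout-labelled islets (log2 fold change -0.998 ± 0.23) and was the 1 of 15 tested stromal genes that fell. Dcn, a matrix proteoglycan, had -1.18 and a limma adjusted p of 0.066. Thy1 and Dcn stood under 1 RPM in both knockout-labelled libraries, so they passed the filter through wild type alone and could only come out lower. The 15 tested endothelial genes had a median of -0.17 and 0 calls by limma, edgeR or DESeq2, with 0 at an unadjusted limma p under 0.05, and groups overlapped in all of them. Kdr (-0.21) and Pecam1 (-0.10) are examples.

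Aldh1a3, a retinaldehyde dehydrogenase that makes retinoic acid and is known as a marker of dedifferentiated beta cells in diabetic mice, was lower. It stood at 3.86 and 3.94 RPM in wild-type islets and 0.606 and 1.18 RPM in knockout-labelled islets, from 432 and 610 against 116 and 193 reads. The wild-type libraries agreed closely and neither overlapped the others. The log2 fold change was -1.39 ± 0.22 (limma adjusted p = 0.0012), and mean RPM was 4.37 times as high in wild type. The call held under both scalings, edgeR, DESeq2 and without each 8-week library in turn. With the acinar mean as a covariate the log2 fold change was -1.21 and the limma adjusted p 0.19. Aldh1a3 was the 1 call among 12 tested genes of the disallowed and dedifferentiation list, which had 6 negative and 6 positive fold changes. Neurog3, the endocrine progenitor factor, stood at 0.11, and Ldha, an enzyme that beta cells normally keep low, at 0.22, both as uncalled log2 fold changes. Among 11 tested retinoid genes it was again the 1 call. The retinoic acid receptor genes Rara (0.32) and Rarb (-0.24) and the retinol-binding protein gene Rbp4 (0.44) were not called.

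Digestive enzyme genes made up the largest group of higher calls. Amy1, a salivary-type amylase gene, stood at 61.0 and 206 RPM in wild-type islets and 787 and 425 RPM in knockout-labelled islets. Wild-type replicate 1 was the lowest library, knockout-labelled replicate 1 the highest, and the second replicates lay between (log2 fold change 2.35 ± 0.46, limma adjusted p = 0.014). Amy2a5, a pancreatic amylase, stood at 3.56 and 10.6 RPM against 38.9 and 22.5 RPM (log2 fold change 2.07 ± 0.37, limma adjusted p = 0.0050). Clps, the cofactor of pancreatic lipase, stood at 53.8 and 150.1 RPM against 567 and 267 RPM (log2 fold change 2.10 ± 0.44). The trypsinogen gene Try10 had the highest fold change of the list's calls, 2.38 ± 0.47, from 8.21 and 27.1 RPM to 117 and 58.3 RPM.

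Of 34 tested acinar genes 12 rose and 0 fell, with a median log2 fold change of 1.81. Both knockout-labelled libraries were above wild type in 31 of them, against 6.91% of all tested genes. Further calls were the trypsins Prss3 (2.10) and Try5 (1.95), the trypsin inhibitor gene Spink3 (2.02), the zymogen granule protein genes Cuzd1 (1.93) and Sycn (1.47), the lipases Pnliprp1 (1.85) and Pnliprp2 (1.76), and the kallikrein Klk1 (1.79). The most abundant enzyme genes were not called. Pnlip, the main pancreatic lipase, stood at 498 and 1454 RPM in wild-type islets and 3998 and 2042 RPM in knockout-labelled islets (1.75 ± 0.52, limma adjusted p = 0.21), and Cela2a, an elastase, had 1.81 ± 0.52. Acinar transcription factors had smaller differences, with Rbpjl at 0.77, Nr5a2 at 0.52 and Bhlha15 at 0.12, none called. Outside the list, Serpini2, a serpin of acinar cells, rose by 2.15, the trypsin-like gene Gm5771 by 2.38, and Cckar, the cholecystokinin receptor that drives enzyme release, by 1.42. The amylase and trypsin genes have near-identical copies, and reads of 1 copy may be counted to another. Without knockout-labelled replicate 1 none of the acinar calls was kept and Amy1 had 1.91, and without wild-type replicate 1 it had 1.48.

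Regenerating islet-derived (Reg) genes, secreted lectins that acinar cells make upon injury and inflammation, included the gene with the largest rise. Reg2 stood at 0.983 and 11.6 RPM in wild-type islets and 77.6 and 19.6 RPM in knockout-labelled islets. The second replicates of the groups were much closer to each other than to the first replicates (log2 fold change 3.01 ± 0.69, limma adjusted p = 0.039). Without knockout-labelled replicate 1 Reg2 lost its call (2.05, limma adjusted p = 0.63), and so did the other called Reg genes. Its log2 fold change was 1.68 without wild-type replicate 1, 4.34 without wild-type replicate 2 and 0.024 with the acinar mean as covariate. Reg1 stood at 55.0 and 156 RPM against 505 and 305 RPM (2.07 ± 0.46) and Reg3d at 0.778 and 2.67 RPM against 10.0 and 4.601 RPM (1.62 ± 0.35). The remaining tested member, Reg3b, overlapped between groups and was not called (1.71). The 7 Reg genes summed to 57.1 and 176 RPM in wild-type islets and 615 and 334 RPM in knockout-labelled islets.

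Duct genes split into called and uncalled members. Krt19, a keratin of duct cells, stood at 4.89 and 2.90 RPM in wild-type islets and 11.2 and 14.8 RPM in knockout-labelled islets (log2 fold change 1.53 ± 0.30, limma adjusted p = 0.012). Here knockout-labelled replicate 2 was the highest library, unlike in the acinar genes, and Krt19 was the 1 higher call kept with the acinar mean as covariate (2.41). The called acinar genes are themselves part of that mean, so the fit draws their fold changes toward 0. Fut2, a fucosyltransferase of epithelia, stood at 0.232 and 0.142 RPM against 1.59 and 1.11 RPM (0.98 ± 0.22). Both were among 14 tested duct genes with 13 positive fold changes and a median of 0.38. Fut2 and the uncalled Cftr stood under 1 RPM in both wild-type libraries. These genes passed the filter through the knockout-labelled libraries alone and could only come out higher. Tff2, a mucin-associated trefoil peptide, missed the threshold (1.54, limma adjusted p = 0.052), and Muc1 (0.92) and Krt7 (0.17) were not called. Krt19 lost its call without knockout-labelled replicate 1 (limma adjusted p = 0.063) and without replicate 2 (limma adjusted p = 0.051).

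Genes known from the intestinal lining were also among the higher calls, a list chosen after values were seen. Akp3, an intestinal alkaline phosphatase, stood at 0.0179 RPM in wild-type replicate 1, which is 2 reads, at 3.76 RPM in wild-type replicate 2, and at 10.3 and 6.29 RPM in knockout-labelled islets (2.04 ± 0.44). Prap1, a secreted protein of gut epithelium, had the same 2 reads in wild-type replicate 1 and 1.81 RPM in replicate 2, against 5.35 and 2.44 RPM (1.47 ± 0.32). In both genes wild-type replicate 1 was far below the other 3 libraries. Apob, the apolipoprotein of chylomicrons, stood at 0.912 and 5.21 RPM against 18.5 and 7.68 RPM (1.92 ± 0.37), and Anxa13, an annexin of epithelia, at 0.760 and 1.28 RPM against 2.45 and 5.31 RPM (1.22 ± 0.26). Of 17 tested genes 4 rose, 17 had positive fold changes and the median was 1.12. Without wild-type replicate 1 the list had 0 calls and a median of 0.57, and without knockout-labelled replicate 1 1 call and 1.003. Sucrase-isomaltase, Sis, stood at 6.19 RPM in knockout-labelled replicate 1 and between 0 and 0.174 RPM in the other 3 libraries. The genes Lgals4 (1.07, limma adjusted p = 0.054) and Apoa4 (2.13, limma adjusted p = 0.061) were not called. The sum of the 24 genes was 85.0 and 103 RPM in wild-type islets and 198 and 138 RPM in knockout-labelled islets.

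**Figure D3:**
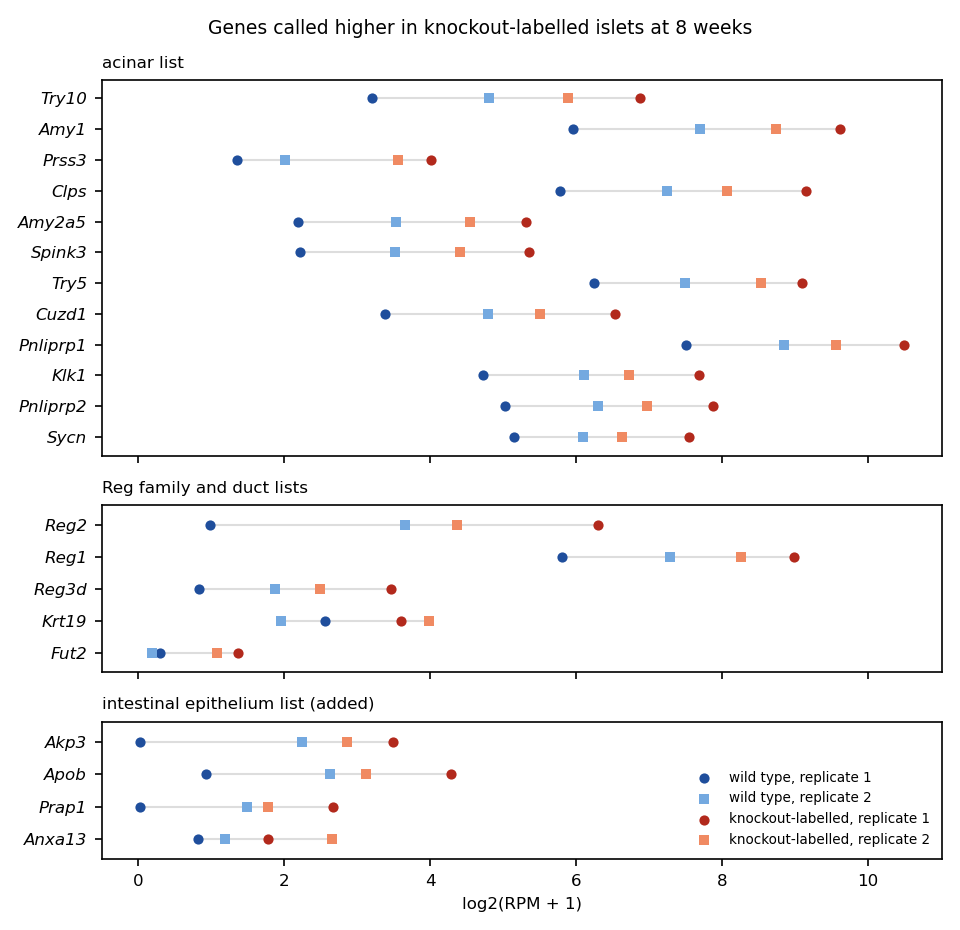
Values on log2(RPM + 1) of 21 genes called higher that belong to a gene list, with symbols as in the plot of lower genes. In the acinar rows the libraries run from wild-type replicate 1 through wild-type replicate 2 and knockout-labelled replicate 2 to knockout-labelled replicate 1, whereas in the Krt19 and Anxa13 rows knockout-labelled replicate 2 is the highest.

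The order of the libraries was shared by most calls. Of the 29 higher calls, 24 rose in the order wild-type replicate 1, wild-type replicate 2, knockout-labelled replicate 2 and knockout-labelled replicate 1, which 176 of all tested genes followed. Of the 37 lower calls, 20 fell in that order, which 260 of all tested genes followed. The leukocyte genes Ptprc, Arhgap15, Dock2 and Lyz2 were exceptions, with wild-type replicate 2 above replicate 1. Further calls, chosen here after their values were seen, were Sykb (-1.29), Fam65b (-1.20), Rtp1 (-1.19), Irf4 (-1.18), March1 (-1.11), Arhgdib (-0.99) and Itga4 (-0.96) among the lower and Tmed11 (1.47), Serpinb1a (1.15), Arhgef26 (1.06) and B4galnt2 (1.002) among the higher. Irf4, a factor of lymphocytes and plasma cells, and Itga4, an integrin of leukocytes, are known from the same cells as the genes above. Besides Tff2, Lgals4 and Hba-a1, the next smallest p-values were those of Zg16, an acinar granule protein (1.92), and Lsamp, a neuronal adhesion protein (-1.45).

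**Figure D4:**
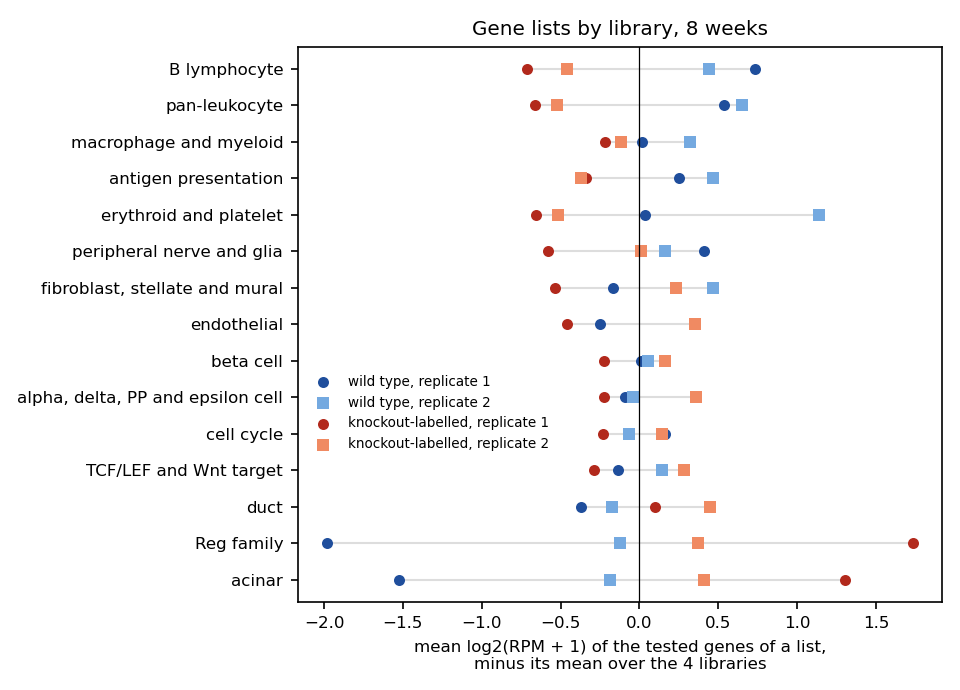
Mean log2(RPM + 1) over the tested genes of each list in each library, minus the mean of the 4 libraries, with symbols as in the plots of single genes. The B lymphocyte and pan-leukocyte rows separate wild type from knockout-labelled libraries with little spread within groups. Both rows include genes, such as Bank1 and Ikzf1, that passed the filter through wild type alone, so part of that separation comes from the filter. The acinar and Reg rows spread widely within groups, and in the beta cell row knockout-labelled replicate 1 alone lies to the left.

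Hormone and beta cell genes gave no call by limma, edgeR or DESeq2, and 1 beta cell gene and 0 of the other endocrine genes had an unadjusted limma p under 0.05. Ins2 stood at 27752 and 26865 RPM in wild-type islets and 23632 and 27104 RPM in knockout-labelled islets (log2 fold change -0.11), and Ins1 had -0.05 and Iapp -0.11. Knockout-labelled replicate 2 lay within the range of wild type for Ins1, Ins2 and Iapp. The standard errors of these abundant genes were wide, 0.71 for Ins2 and 0.22 without the mean-variance trend, and small differences were not detectable. The beta cell factors Pdx1 (-0.24 ± 0.22) and Mafa (-0.26 ± 0.25) were not called. Of 30 tested beta cell genes 20 had negative and 10 positive fold changes, with a median of -0.04, and the furthest were the taste channel gene Trpm5 (0.58) and the prolactin receptor gene Prlr (-0.55). Of 14 tested genes of alpha, delta and PP cells 11 were positive with a median of 0.12, among them Gcg for glucagon (0.29), Ppy for pancreatic polypeptide (0.26) and Sst for somatostatin (0.09). None was called. Without knockout-labelled replicate 2 that tally turned to 12 negative and 2 positive with a median of -0.15, and without knockout-labelled replicate 1 that of the beta cell list turned to 11 negative and 19 positive with a median of 0.14.

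Targets and partners of the TCF/LEF factors gave no call either. Of 24 listed genes, 13 were tested, 7 with negative and 6 with positive fold changes and a median of -0.02. Axin2, the general feedback target of Wnt signalling, stood at 3.16 and 3.62 RPM in wild-type islets and 3.49 and 4.88 RPM in knockout-labelled islets, which overlap (0.23 ± 0.21). Znrf3, which removes Wnt receptors, had -0.14, Rnf43 of the same function 0.28, and Myc 0.27. Ctnnb1, the gene of beta-catenin, had 0.09. Among 19 tested incretin and cAMP genes the median was -0.09 with 0 calls. The GIP receptor gene Gipr stood at 28.8 and 34.5 RPM against 33.1 and 44.8 RPM (0.28 ± 0.24), and the GLP-1 receptor gene Glp1r had 0.02 ± 0.27. Among 19 tested p53 and apoptosis genes 0 were called, with Trp53inp1 at 0.60, Bcl2 at -0.49 and Perp at 0.44. limma and edgeR called 0 genes of these 3 lists, and DESeq2 called 1 p53 and apoptosis gene higher. An unadjusted limma p under 0.05 was found for 2 p53 and apoptosis genes and 0 genes of the other lists named here. Without knockout-labelled replicate 1 the medians of the TCF/LEF and incretin lists were 0.30 and 0.20, and without replicate 2 they were -0.35 and -0.38, with -0.06 for the p53 list.

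The same genes were looked at in the 20-week libraries, which share no sample with those at 8 weeks. Of the 37 lower calls 16 kept their sign at 20 weeks, with a median log2 fold change of 0.04, and of the 29 higher calls 9 did, with a median of -0.50. Of all tested genes 6630 kept their sign. The fit called 4 genes lower (0.0322%) and 3 higher (0.0242%) at 20 weeks among the genes tested here, and Aldh1a3 was the 1 of the 66 among them. Aldh1a3 stood at 3.72 and 3.20 RPM in wild-type islets and 12.9 and 17.2 RPM in knockout-labelled islets at 20 weeks, the opposite direction from 8 weeks. The difference between the genotype contrasts was called for 12 genes upward (0.0966%) and 10 downward (0.0805%), with 9 of the lower and 8 of the higher calls among them. That difference includes the 8-week values by which the 66 genes were called, so for them it is no independent test. Aldh1a3 had the smallest p, with a difference of 3.23 ± 0.31 (limma adjusted p = 1.2e-06). Bank1, at 0.202 to 0.429 RPM in all 4 libraries at 20 weeks, had 2.75 ± 0.36. Amy1 stood at 341 and 1006 RPM in wild-type islets and 253 and 406 RPM in knockout-labelled islets at 20 weeks (difference -3.22 ± 0.66). The acinar list there was highest in wild-type replicate 2, at 38443 RPM against 11700.3 to 13846 RPM in the other 3. Age and diet cannot be told apart in this difference.

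**Figure D5:**
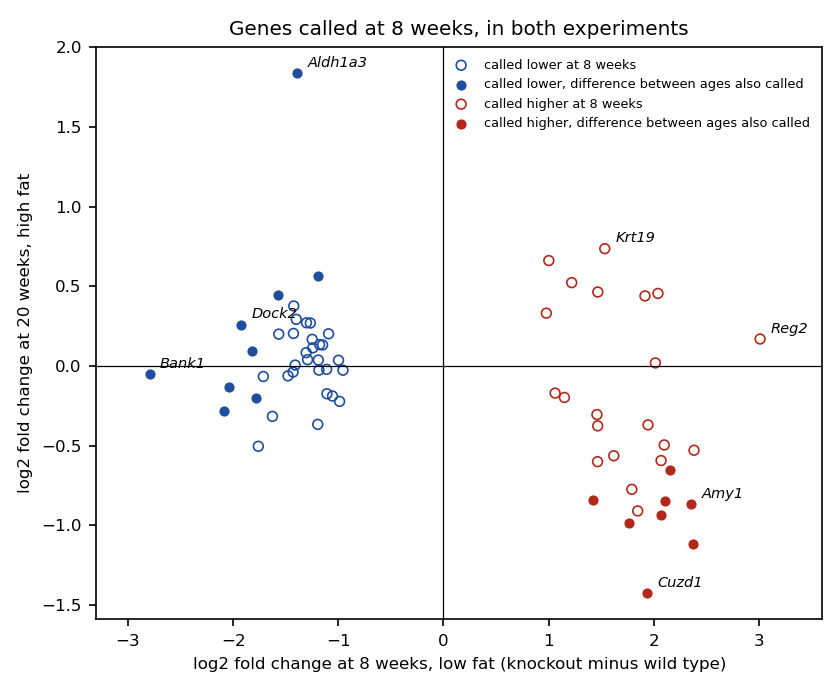
Log2 fold change (knockout minus wild type) at 8 weeks on the horizontal axis and at 20 weeks on the vertical axis for the 66 genes called at 8 weeks, filled where the difference between the ages was called too. Aldh1a3 lies high on the left with 1.84 at 20 weeks, Bank1 and Dock2 near 0 with -0.05 and 0.26, and Amy1 below 0 with -0.87.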

How the data were processed

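The authors deposited RPM values, reads scaled to the library total, for 22632 genes in 8 mouse islet libraries. Per the submitters' processing notes, TopHat 1.4.1, CASAVA 1.8 and FastQC were used with the build mm9. No source used here states the counting tool, the annotation or the use of strand. Values were whole multiples of 1 read's worth (100% whole within 0.01 of a read), 0.00523 to 0.00894 RPM at 8 weeks, so reads were recovered. Of the identifiers 20750 matched GENCODE M21, 25 symbols that read as dates were replaced through it, and 129 symbols occurred more than once, for which the symbol stands for the row of highest mean.

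The test was limma 3.58.1 in R 4.3.3 on log2(RPM + 1) over the 4 groups of 2 libraries, with a mean-variance trend, 4 residual and 21.5 prior degrees of freedom, and Benjamini-Hochberg adjustment over the 12422 tested genes. Errors are limma standard errors; where an SD is given, n = 2. edgeR 4.0.16 (quasi-likelihood, TMM) and DESeq2 1.42.0 ran on recovered reads; the edgeR test called 9 genes. Tested on simulated data of the 8-week contrast with 12347 genes, limma found 85 of 100 genes set to change 2-fold, of which 99 passed the filter, and 98 of 100 set to change 4-fold, beside 10 false calls. The simulated counts varied independently from gene to gene around a mean shared by the libraries of an age. They held no shift of a whole library such as that between the knockout-labelled replicates, so these rates need not hold for the real data. No replicates agreed within sampling noise, so none was merged.

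Named genes are Tcf7, the 20 highest and 20 lowest calls, the 5 next smallest p-values, the called and up to 5 other members of each list, and islet genes; exceptions are marked. The members and lists were chosen with earlier results of these data known. Promoters are RefSeq's. Of the 66 calls, 13 overlap an exon of a gene on the opposite strand in GENCODE M21 (Arhgap15, Dock2, Pax5, Nos1, Hvcn1, March1, Nefl, Coro1a, Arhgdib, Itga4, Prap1, Arhgef26 and B4galnt2), whose reads cannot be told apart if strand was not used. Amy1 and Tmed11 share exons with another gene on the same strand. Some members and 1 call are not reported here.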

Additional observations from a re-analysis of the deposited data

Results flagged for a closer look

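For 17 genes called at 8 weeks the difference between the genotype contrasts, 20 weeks minus 8 weeks on the log2 scale, passed limma's adjusted p of 0.05. It was negative for genes of the exocrine tissue: Try10 (-3.49), Cuzd1 (-3.36), Amy1 (-3.22), Amy2a5 (-3.01), Prss3 (-2.95), Serpini2 (-2.80), Pnliprp2 (-2.75) and Cckar (-2.27). It was positive for leukocyte genes: Bank1 (2.75), Dock2 (2.18), Lyz2 (1.92), Ptprc (1.91), Arhgap15 (1.81) and Wdfy4 (1.58). It was also positive for the neuronal genes Nos1 (2.02) and Csmd1 (1.75), and for Aldh1a3 (3.23). The 17 genes were chosen by the 8-week contrast that this difference includes, so a difference of opposite sign was favoured. It is no independent test of them. Of the 19 alternatives, Aldh1a3, Arhgap15 and Dock2 each passed in 17, Ptprc in 15, the exocrine genes in 9 to 11, Bank1 in 12, Lyz2, Nos1 and Csmd1 in 10 and Wdfy4 in 8. Aldh1a3, Arhgap15 and Dock2 were the 3 genes called by both scalings and by edgeR. The summed acinar level, which was higher in knockout-labelled libraries at 8 weeks and highest in a wild-type library at 20 weeks, moved with the acinar genes, and its part in the other genes' differences was not tested beyond the covariate fit, in which Aldh1a3, Bank1, Lyz2 and Ptprc were kept.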

How the results depend on the processing

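The counts of calls at 8 weeks, 37 lower and 29 higher, and of the difference between the contrasts, 22, moved with most settings. Lower calls numbered 7 with median-of-ratios scaling, 12 when scaled to reads in listed genes, 9 with no filter, 23 at a minimum of 5 RPM, 23 with a pseudocount of 0.1, 58 in a fit of the 4 libraries alone, 11 with the acinar mean as covariate, 9 by edgeR and 80 by DESeq2. Higher calls in the same order numbered 0, 0, 0, 58, 12, 88, 6 and 0, and 20 by DESeq2. They were 2 with the filter set over all 8 libraries, 18 with no mean-variance trend and 56 at a threshold of 0.10. The difference between the contrasts had 3 calls with each scaling and with edgeR, 2 with no filter (0 of the 22), 75 at 5 RPM, 9 with the filter over all 8 libraries, 13 with no trend, 56 at 0.10, 12 with the covariate and 60 by DESeq2. Leaving out 1 library gave 14 to 312 lower calls, 8 to 101 higher calls and 6 to 135 for the difference; the extremes came without knockout-labelled replicate 1 (14, 8 and 6), without knockout-labelled replicate 2 (312), without wild-type replicate 2 or 20-week wild-type replicate 2 (101 each) and without 20-week wild-type replicate 1 (135). A lone library in a group is then assumed to vary like the other groups. Of the values of called genes under alternatives, 751 kept their call, 493 lost it and 2 changed sign: Spink3 (-0.034) and Cuzd1 (-0.10) with the acinar covariate. The tally includes the threshold of 0.10, which keeps every call by construction. It also includes fits without a 20-week library, which leave the 8-week fold changes unchanged. Spink3 and Cuzd1 belong to the acinar list whose mean was the covariate, so that fit draws their fold changes toward 0. The cause of the other changes was not tested. No paired analysis was possible because the labels give no replicate numbers that groups share. Depth was 47.1 to 83.6 M reads in listed genes at 8 weeks, where 1 read was worth 0.00523 to 0.00894 RPM, and each group held 2 libraries.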

Other observations

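The gene groups described here held no call by limma at 8 weeks. Among 17 tested clock genes, Nr1d1, which encodes the repressor REV-ERB alpha, stood at 6.65 and 9.52 RPM in wild-type islets and 11.4 and 18.1 RPM in knockout-labelled islets (log2 fold change 0.78, limma adjusted p = 0.32). Npas2, a partner in the activating arm of the clock, stood at 8.21 and 10.2 RPM in wild-type islets and 4.94 and 6.00 RPM in the others (-0.66, limma adjusted p = 0.32). Neither overlapped between the groups. Arntl, the gene of BMAL1, had -0.44, and the median of the list was 0.07. DESeq2 called 1 clock gene lower and 1 higher, edgeR called 0, and 2 had an unadjusted limma p under 0.05.

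All 16 tested immediate early genes had a positive log2 fold change, with 0.21 as the median, among them Junb (0.37) and Fos (0.22), and without knockout-labelled replicate 2 the median was -0.06. Ribosomal protein genes had a median of 0.12. Both knockout-labelled libraries were above wild type in 13 of 25, against 6.91% of all tested genes. Cell cycle genes had a median of -0.10, with Mki67 at -0.29, and the median was 0.11 without knockout-labelled replicate 1. Endoplasmic reticulum stress genes had -0.10, with Hspa5 at -0.11, oxidative defence genes 0.07, interferon response genes 0.03, and sterol and fatty acid synthesis genes -0.07, with the desaturase Scd1 at -0.79 (limma adjusted p = 0.17). edgeR and DESeq2 called 0 genes of these 7 lists, and the unadjusted limma p was under 0.05 for 1 gene each of the oxidative defence, interferon and sterol lists and for 0 of the other 4.

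Tcf7 and the T lymphocyte list stood higher in the 20-week libraries than at 8 weeks under both labels. At 20 weeks Tcf7 read 1.58 and 0.991 RPM under the wild-type label and 4.56 and 2.56 RPM under the knockout label, where the knockout-labelled libraries were again the higher ones. The T lymphocyte and NK list summed to 20.0 to 26.3 RPM in the 4 libraries at 20 weeks and to 1.05 to 6.43 RPM at 8 weeks. These values were not tested, and age and diet cannot be told apart in them.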
